A study of Mus musculus with 8 samples.

Results

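The 47 genes described here encode the machinery that copies nuclear DNA: the factors that recognise and load replication origins, the MCM helicase and its activators, the polymerases, the sliding clamp and its loader, and enzymes of deoxynucleotide supply. They were taken by gene symbol from count tables of 37310 gene identifiers, and all 47 matched exactly 1 identifier. RNA was measured in pools of 2-cell C57BL/6N mouse embryos that were either DKO, carrying knockout alleles of both Gadd45a and Gadd45b, or wild-type. Each genotype had 4 pools, and a pool held 23, 27, 28 and 35 DKO embryos or 23, 30, 25 and 25 wild-type embryos (replicates 1 to 4), each from 1 litter. Females of 3 to 4 weeks, DKO or wild-type, were superovulated and mated naturally, and their embryos were taken 20 h after a plug was seen. The design does not separate loss of the genes in the mother from loss in the embryo. The DKO mice were bred from a Gadd45a and a Gadd45b knockout line. Because each value is of pooled embryos, a transcript present in fewer cells and less transcript per cell cannot be told apart.

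Replication starts when the origin recognition complex (ORC) binds DNA and, with CDC6 and CDT1, loads rings of MCM2 to MCM7 around it; geminin blocks CDT1 so that loading happens once per cycle. The kinase CDC7 with its activator DBF4 then helps to switch the rings on, CDC45 and the GINS complex join them to form the working helicase, and the polymerases follow on the primed, RPA-coated strands. The early embryo divides without growing and draws on RNA and protein laid down in the oocyte while its own genome is switched on.

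Libraries held 21329736 to 23919114 counts. The mitochondrial share of counts was highest in wild-type replicate 3, at 8.32%, with the other libraries at 5.86 to 7.07%. The quality weight from limma-voom was lowest for DKO replicate 1, at 0.365, with the other libraries at 0.786 to 2.08. The part of either in the results below was not tested. Gadd45b, the check of the labels, had 1 to 14 counts in the DKO libraries and 808 to 1395 in the wild-type libraries. Gadd45a had 163 to 247 counts in DKO and 341 to 502 in wild-type, and the counts cover the whole gene, so they do not show which part was removed. The 9 measured markers of the 2-cell stage summed to 637 to 977 CPM in DKO and 511 to 836 CPM in wild-type. CPM are library-size-scaled counts, with edgeR's TMM factors. Zfp352 was the highest of these markers. Of the 8 tested, 5 were higher in DKO and 3 lower by log2 fold change, with 0 called by edgeR. Only Tdpoz4 had pools that did not overlap, lower in DKO at 10.1 to 22.5 CPM, against 25.1 to 36.5 CPM in wild-type. Over all genes tested, 2.55% were without overlap and lower in DKO. Of 14 cumulus and granulosa cell markers, which would come from cells that surround the egg, Foxl2, Inhba, Ptx3 and Amh had 0 counts in every library, and the list summed to 29.5 to 48.2 CPM in DKO and 33.4 to 39.7 CPM in wild-type. Most of that sum came from Amhr2, at 433 to 762 counts in DKO and 500 to 654 in wild-type, and Tnfaip6, at 126 to 245 counts in DKO and 130 to 251 in wild-type. The 7 sperm markers summed to 1.11 to 2.37 CPM in DKO and 0.518 to 1.47 CPM in wild-type. The 8 markers of the blastocyst lineages summed to 13.5 to 23.6 CPM in DKO and 7.91 to 23.0 CPM in wild-type. Most of the blastocyst sum came from Gata3, at 9.08 to 16.0 CPM in DKO and 5.94 to 14.1 CPM in wild-type. The summed level of 14 oocyte-inherited transcripts was 18100 ± 5930 CPM in DKO and 11471 ± 2441 CPM in wild-type (SD, n = 4 each). Omt2a, Omt2b, Btg4, Tcl1 and Oosp1 supplied most of it, with log2 fold changes (DKO minus wild-type) of 0.60 to 0.83. Zp1, Zp2, Zp3, Nlrp5, Oas1d and Padi6 lay at −0.07 to 0.01. Of the 14, 10 had a log2 fold change above 0, and 6 were higher at an unadjusted p under 0.05 (42.9%, against 5.79% of all genes tested) and 0 lower, with 0 called by edgeR. DKO replicate 1 stood highest, at 26816 CPM, with the other DKO pools at 13951 to 16784 CPM and the wild-type pools at 8737 to 14649 CPM.

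Promoters of S phase genes are known for E2F sites, the DNA words bound by the E2F factors. RefSeq windows (GRCm38.p6) of 250 bases before to 50 bases after the start were at hand for 39 of the 47 genes. The words TTTCCCGC, TTTCGCGC and TTTGGCGC were searched on both strands, and occurrences on opposite strands may overlap. At least 1 of them lay in the windows of 15 of the 39 genes (38.5%), compared with 2.12% of all 27025 genes with a window. By window, 31.2% of 48 member windows held a word, 1.84% of all 32851 windows and 2.65% of the 13001 windows whose GC content lay between the lower and upper quartiles of the members' windows, 51.2 and 65.7%. The windows of 4 MCM genes and Orc1 are shown as examples that hold the words, with Mcm2 beside them because it holds none of the 3. Of the loading genes not shown, Orc3, Cdc6 and Cdt1 also held a word, and Orc2, Orc4, Orc5 and Orc6 held none. Capitals mark the words.
Orc1, chr4:108579204-108579503, plus strand: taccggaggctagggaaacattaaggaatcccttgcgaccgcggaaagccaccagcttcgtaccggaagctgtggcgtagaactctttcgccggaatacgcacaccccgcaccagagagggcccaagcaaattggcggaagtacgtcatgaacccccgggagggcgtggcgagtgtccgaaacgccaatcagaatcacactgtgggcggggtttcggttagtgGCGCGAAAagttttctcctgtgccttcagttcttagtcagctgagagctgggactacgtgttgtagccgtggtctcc
Mcm3, chr1:20820263-20820562, minus strand: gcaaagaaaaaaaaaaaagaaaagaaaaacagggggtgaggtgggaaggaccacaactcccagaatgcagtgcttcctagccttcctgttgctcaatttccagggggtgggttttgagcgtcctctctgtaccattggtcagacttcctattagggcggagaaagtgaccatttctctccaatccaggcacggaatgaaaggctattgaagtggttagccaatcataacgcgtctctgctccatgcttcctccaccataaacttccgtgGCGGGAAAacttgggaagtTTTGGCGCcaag
Mcm5, chr8:75109259-75109558, plus strand: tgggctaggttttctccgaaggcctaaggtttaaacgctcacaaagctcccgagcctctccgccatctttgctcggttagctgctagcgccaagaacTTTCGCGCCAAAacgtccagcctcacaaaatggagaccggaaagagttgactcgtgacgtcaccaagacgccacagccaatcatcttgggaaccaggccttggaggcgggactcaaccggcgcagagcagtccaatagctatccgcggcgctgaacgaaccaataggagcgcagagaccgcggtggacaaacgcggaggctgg
Mcm6, chr1:128359656-128359955, minus strand: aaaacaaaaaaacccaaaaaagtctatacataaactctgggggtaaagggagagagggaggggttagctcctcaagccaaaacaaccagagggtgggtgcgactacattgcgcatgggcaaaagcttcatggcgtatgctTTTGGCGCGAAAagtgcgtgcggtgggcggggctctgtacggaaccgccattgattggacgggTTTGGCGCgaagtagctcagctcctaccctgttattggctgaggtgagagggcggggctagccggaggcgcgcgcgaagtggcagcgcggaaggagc
Mcm7, chr5:138171834-138172133, minus strand: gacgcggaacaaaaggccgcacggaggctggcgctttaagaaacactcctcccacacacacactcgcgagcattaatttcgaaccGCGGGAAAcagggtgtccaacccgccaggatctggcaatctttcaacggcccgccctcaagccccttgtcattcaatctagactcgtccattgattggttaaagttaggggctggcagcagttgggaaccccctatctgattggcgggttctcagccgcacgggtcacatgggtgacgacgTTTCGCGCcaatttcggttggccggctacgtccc
Mcm2, chr6:88898731-88899030, minus strand: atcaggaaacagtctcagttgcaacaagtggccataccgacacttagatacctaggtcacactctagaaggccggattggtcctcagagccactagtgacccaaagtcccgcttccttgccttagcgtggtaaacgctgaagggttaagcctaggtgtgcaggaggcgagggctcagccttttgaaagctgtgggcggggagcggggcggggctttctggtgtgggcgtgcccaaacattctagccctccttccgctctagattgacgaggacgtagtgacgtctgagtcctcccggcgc

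The Mcm6 window held 3 words, of which a pair overlapped, and the Mcm5 window held 2 overlapping words. A second Mcm7 start, downstream of the one shown on the same strand, had no word in its window. The CCAAT word was found in 61.5% of member genes and 41.1% of all genes, and the GC box GGGCGG in 76.9% and 38.2%. The word TTTGAA, found in promoters of genes expressed late in the cycle, lay in 20.5% of member genes and 20.2% of all genes. By window, with GC content held to the range above, CCAAT lay in 54.2% of member windows and 38.1% of the windows of like GC content, GGGCGG in 72.9% and 46.7%, and TTTGAA in 18.8% and 11.8%. These are matches of letters in short windows and not measured binding.

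Transcripts of most replication genes were present in both genotypes. A mean of at least 10 CPM was reached by 43 of the 47 genes in DKO and 42 in wild-type, and 46 passed the filter on low counts; Fen1 did not. Per kilobase of exon, the 46 genes stood at a median of the 77.0th percentile of all 14970 genes tested, 41 were above the median gene, and 13 were in the top 10%. Summed over the 47 genes, the DKO pools held 7365, 8217, 7669 and 7983 CPM and the wild-type pools 7997, 8037, 7604 and 8824 CPM (replicates 1 to 4), so the groups overlapped. The lowest sum was that of DKO replicate 1. This pool held the lowest value of the 8 libraries for 17 of the 47 genes and the highest for 8.

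**Figure D1:**
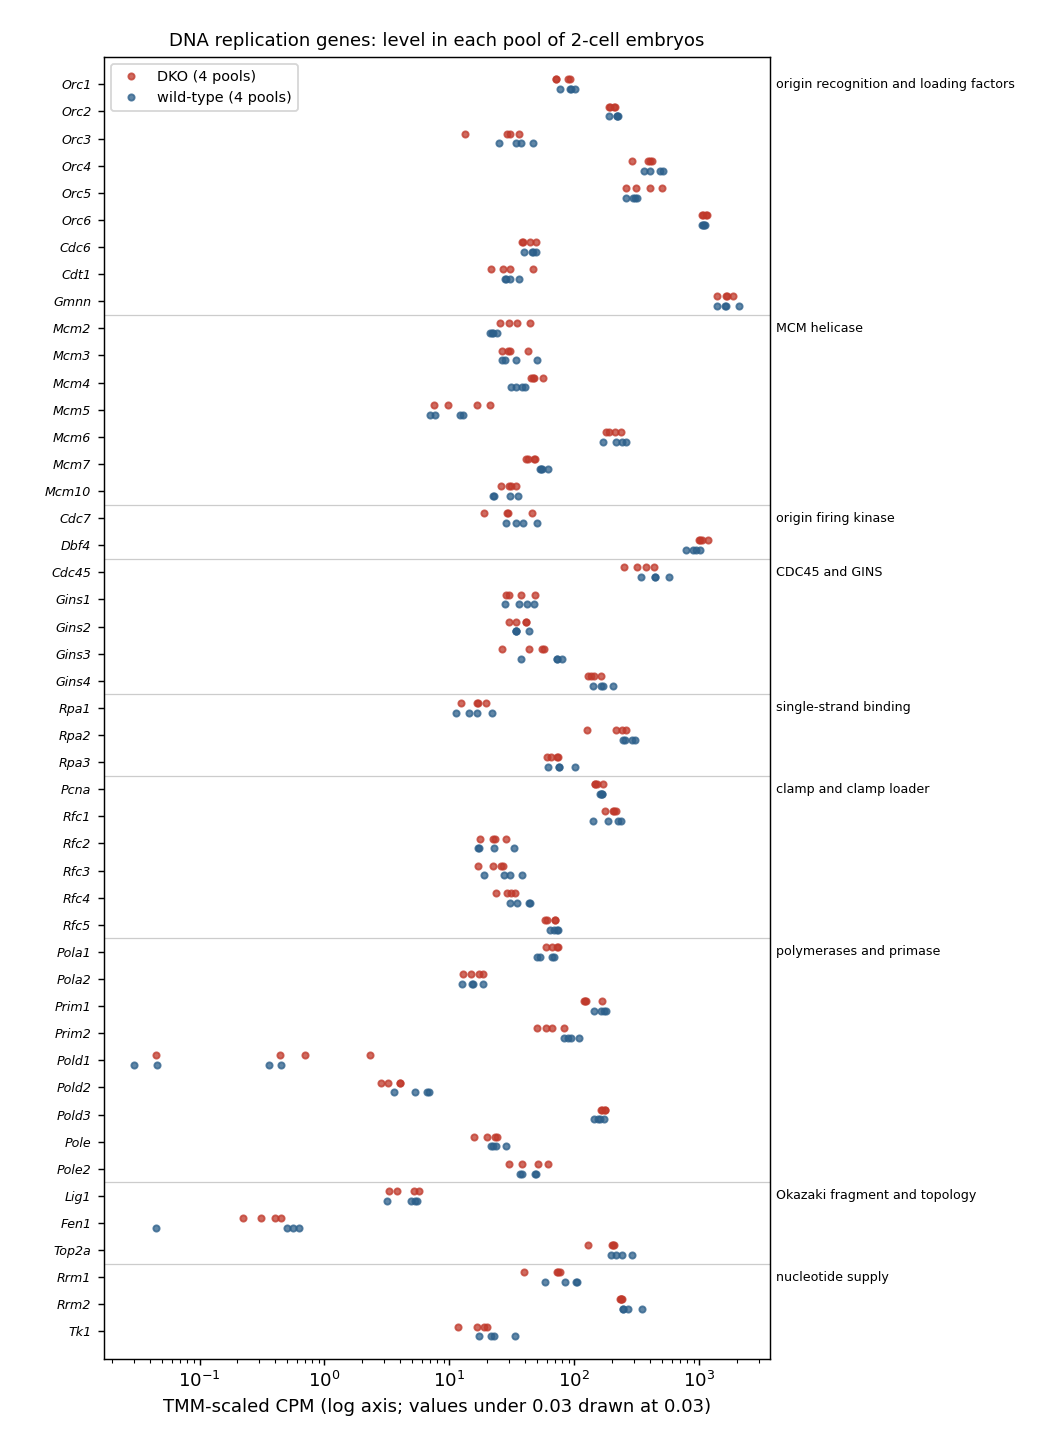
Level of each DNA replication gene in each pool, in TMM-scaled CPM on a log axis, with DKO pools drawn above wild-type pools in each row and rows grouped by role. Most genes lie above 10 CPM and the points of the genotypes lie over each other in nearly every row, whereas Pold1 and Fen1 stay near or under 1 CPM except for 1 DKO pool of Pold1.

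Subunits that work together in 1 complex were present at very unequal RNA levels. In ORC, whose 6 subunits bind origins, Orc6 stood at 448 ± 20.3 CPM per kb in DKO and 439 ± 8.71 CPM per kb in wild-type, and Orc3 at 4.48 ± 1.61 and 5.89 ± 1.49 CPM per kb (SD, n = 4 each). Among the MCM2 to MCM7 genes, whose products sit in the ring in equal numbers, Mcm6 was highest at 43.8 ± 5.45 CPM per kb in DKO and 47.7 ± 8.32 CPM per kb in wild-type, and Mcm5 lowest at 3.43 ± 1.55 and 2.47 ± 0.743 CPM per kb (SD, n = 4 each). The ratio of Mcm6 to Mcm5 ranged from 7.28 to 29.7 over the 8 libraries.

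In GINS, Gins4 was at 106 ± 11.1 CPM per kb in DKO and 125 ± 19.0 CPM per kb in wild-type, and Gins2 at 8.90 ± 1.30 and 8.85 ± 1.15 CPM per kb (SD, n = 4 each). The Gins2 level is uncertain, since 67.3% of its exon bases overlap exons of Gse1 on the other strand. Of the RPA subunits, which coat single-stranded DNA, Rpa2 stood 23.8 times as high as Rpa1 per length in DKO and 31.8 times in wild-type. Rfc1, the large subunit of the clamp loader, stood 9.19 times as high as Rfc2 per length in DKO and 9.18 times in wild-type. Dbf4, the activator of the firing kinase, stood 16.5 times as high as its catalytic partner Cdc7 in DKO and 11.4 times in wild-type, and Rrm2, the small subunit of ribonucleotide reductase, stood 14.3 times as high as the large subunit Rrm1 in DKO and 12.6 times in wild-type.

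The replicative polymerases also had subunits at unequal levels. Pold3, an accessory subunit of polymerase delta, was at 37.0 ± 1.41 CPM per kb in DKO and 34.6 ± 2.66 CPM per kb in wild-type, whereas Pold2, its second subunit, was at 1.86 ± 0.318 and 2.96 ± 0.792 CPM per kb (SD, n = 4 each). Pold1, the catalytic subunit, was close to absent, at 52, 16, 10 and 1 counts in the DKO pools and 0, 1, 10 and 8 counts in the wild-type pools (replicates 1 to 4). Pold1 was singled out after its values were seen. Its exons overlap no other gene in GENCODE M21, and the search for near-identical copies found none. Pole, the catalytic subunit of polymerase epsilon, was at 1.86 ± 0.342 CPM per kb in DKO and 2.15 ± 0.285 CPM per kb in wild-type, below Pole2 at 15.7 ± 4.81 and 15.1 ± 2.39 CPM per kb (SD, n = 4 each). In the polymerase alpha and primase complex the primase subunit Prim1 was highest, at 34.4 ± 5.60 CPM per kb in DKO and 42.6 ± 3.88 CPM per kb in wild-type, and Pola2 lowest at 1.92 ± 0.304 and 1.86 ± 0.295 CPM per kb (SD, n = 4 each).

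**Figure D2:**
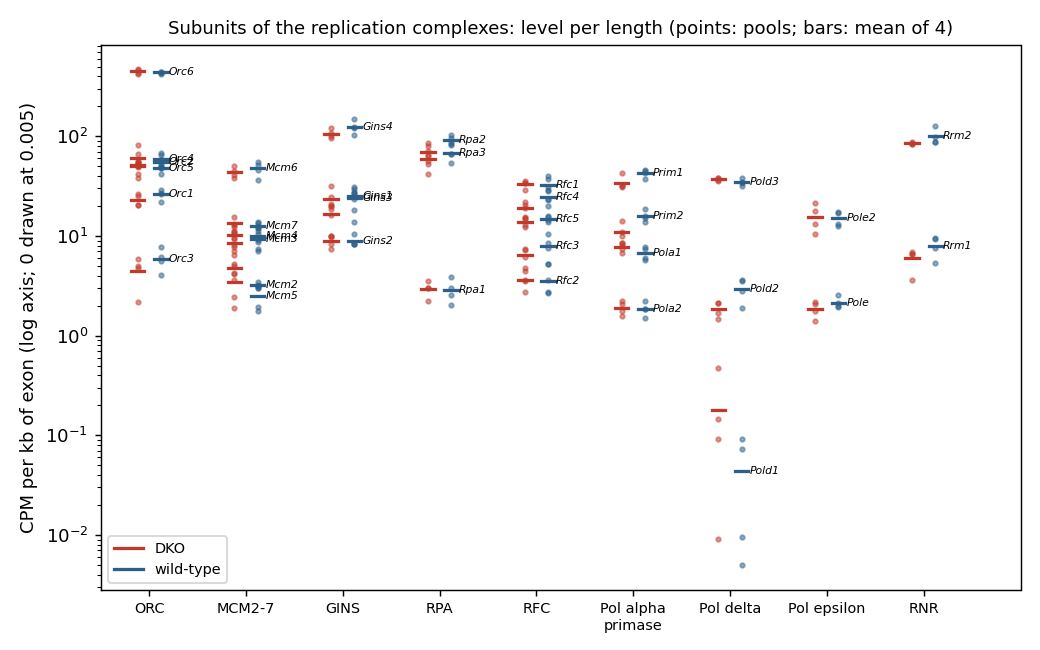
CPM per kb of exon, on a log axis, of the subunits of 9 replication complexes, with DKO left of wild-type in each column; points are pools and bars are means of 4. Orc6 lies far above the other ORC subunits, and Pold1 lies far below Pold2 and Pold3 in both genotypes.

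By wild-type means, the highest and the lowest subunit were the same genes when the longest coding transcript replaced the exon total as length. This held in all 10 groups compared, which were the 9 complexes drawn and the pair Cdc7 and Dbf4. The sizes moved in some: Rrm2 over Rrm1 was 12.6 with exon total and 5.77 with the longest transcript in wild-type, Dbf4 over Cdc7 was 11.4 and 31.0, Orc6 over Orc3 was 74.5 and 47.4, and Rpa2 over Rpa1 was 31.8 and 47.8. This length was added after seeing the data. By library, with the exon total as length, Rpa2 was the highest RPA subunit in 6 of 8 and Mcm5 the lowest ring subunit in 7 of 8. The other highest and lowest subunits were the same in all 8.

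The comparison of genotypes asked whether any replication gene differed in RNA level between DKO and wild-type embryos. None of the 46 tested passed edgeR's quasi-likelihood test with Benjamini-Hochberg adjustment over all genes (smallest adjusted p = 0.469), where 0.0267% of all genes tested were called. DESeq2 (0.264% of all genes called) and limma-voom (0.0334%) also called 0 of them. At an unadjusted p under 0.05, 2 genes were higher in DKO (4.35%, against 5.79% of all genes tested) and 2 were lower (4.35%, against 4.44%), so each share was near or below that of all genes; together they made 8.70% of the members, against 10.2% of all genes. In 4 genes (8.70%) the values of the 4 DKO pools did not overlap those of the 4 wild-type pools, against 5.34% of all genes tested. Of these, 2 were higher in DKO and 2 lower, where 2.79% and 2.55% of all genes were.

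The log2 fold changes (DKO minus wild-type) of the 46 genes had a median of −0.10, against 0.01 for all genes tested. They were below 0 for 29 genes (63.0%), against 48.8% of all genes. The summed oocyte-inherited RNA lay the other way, at 18100 CPM in DKO and 11471 CPM in wild-type, and its part in the members' values was not tested. The quartiles of the members lay between −0.31 and 0.03, and those of all genes between −0.23 and 0.30. For 40 of the 46 genes the unadjusted 95% interval derived from the fit lay within 2-fold in both directions. The exceptions were Mcm2, Mcm5, Gins3, Pold1, Pold2 and Tk1, and the widest was that of Pold1, from −0.24 to 4.28.

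**Figure D3:**
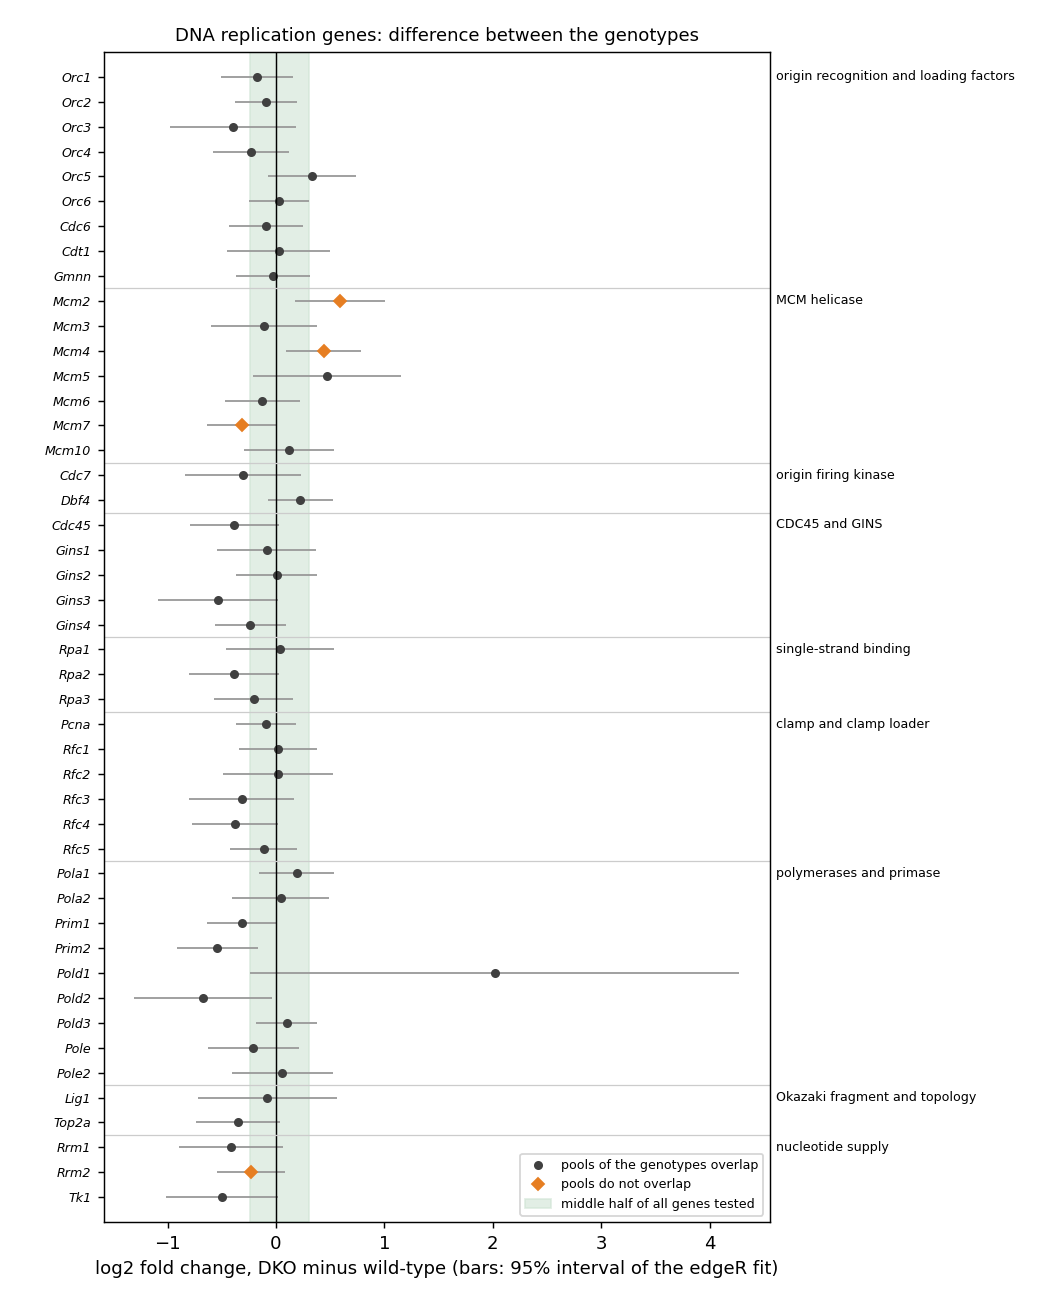
Log2 fold change of each tested gene, DKO minus wild-type, with its 95% interval from the edgeR fit; diamonds mark genes whose pools do not overlap and the band runs between the quartiles of all genes tested. Of the 46 points, 5 lie right of the band (Orc5, Mcm2, Mcm4, Mcm5 and Pold1) and 15 left of it, among them Gins3, Prim2, Pold2 and Tk1.

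Origin recognition and loading factors had 3 members above 0 and 6 below, with a median log2 fold change of −0.09 over 9. Gmnn, which encodes geminin and had the highest level per length of all 47 genes, was at 1398, 1879, 1636 and 1684 CPM in DKO and 1394, 1635, 1607 and 2095 CPM in wild-type (replicates 1 to 4). The groups overlapped, and the difference was −0.03 ± 0.16 (log2, SE, adjusted p = 0.957 by edgeR), with values of −0.11 to 0.09 when a library was left out. Orc5, an ATP-binding subunit of ORC and the member of the group with the smallest p, was at 504, 259, 407 and 311 CPM in DKO and 305, 319, 294 and 257 CPM in wild-type. DKO replicates 1 and 3 lay above every wild-type pool, and the difference of 0.33 ± 0.19 (log2) was not called (SE, adjusted p = 0.533 by edgeR). It was 0.14 without DKO replicate 1 and 0.21 with limma-voom. Orc6 stood at 1054 to 1160 CPM in DKO and 1054 to 1103 CPM in wild-type, with overlapping groups, and was picked after its values were seen. The loading factors Cdc6 and Cdt1 had log2 fold changes of −0.09 and 0.03, the sign of the second turning in 5 of 14 alternative settings. A copy in Gm9430 covers 33.0% of the longest Cdc6 transcript, and 29.8% of Orc2 and 10.8% of Orc1 exon bases overlap other genes, so these counts are uncertain too.

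The MCM genes lay in both directions, with 4 above 0 and 3 below and a median of 0.12 over 7. Mcm2, a subunit of the ring that also binds histones, was at 44.5, 34.9, 25.2 and 29.8 CPM in DKO and 21.8, 21.1, 22.2 and 24.2 CPM in wild-type (replicates 1 to 4). All 4 DKO pools lay above all wild-type pools, most of all DKO replicate 1, and the difference was 0.59 ± 0.20 (log2, SE, unadjusted p = 0.00894, adjusted p = 0.469 by edgeR). Mcm4, another ring subunit, was at 47.8, 44.6, 46.3 and 56.2 CPM in DKO and 40.3, 37.8, 31.4 and 34.0 CPM in wild-type. Here too no DKO pool overlapped a wild-type pool, with a difference of 0.44 ± 0.16 (log2, SE, unadjusted p = 0.0156, adjusted p = 0.469 by edgeR).

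Mcm7, a ring subunit whose introns hold a microRNA cluster, lay the other way, at 40.9, 47.7, 42.5 and 48.9 CPM in DKO and 61.7, 52.9, 53.9 and 55.3 CPM in wild-type. All DKO pools were below all wild-type pools, and the difference was −0.31 ± 0.15 (log2, SE, unadjusted p = 0.0540, adjusted p = 0.489 by edgeR). Mcm7 counts are uncertain, because 72.8% of its longest coding transcript has a copy of at least 95% identity in Gm5487 and 12.6% of its exon bases overlap other genes. Mcm6, the most abundant ring subunit, was at 179, 211, 191 and 237 CPM in DKO and 243, 217, 171 and 261 CPM in wild-type, with overlapping groups and a difference of −0.13 ± 0.16 (log2, SE, adjusted p = 0.779 by edgeR), and −0.24 to −0.05 with a library left out. Mcm5, Mcm3 and Mcm10 had log2 fold changes of 0.47, −0.11 and 0.12, none called.

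Mcm2 and Mcm4 kept a positive sign and Mcm7 a negative sign in all 14 alternative settings, and none of these settings called any of the 3. On GRCm38 Mcm2 lies 21.8 Mb from Gadd45a on chromosome 6, Rpa3 58.8 Mb from Gadd45a, and Prim1 47.1 Mb from Gadd45b on chromosome 10. The other 44 genes are on other chromosomes than the targeted loci.

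**Figure D4:**
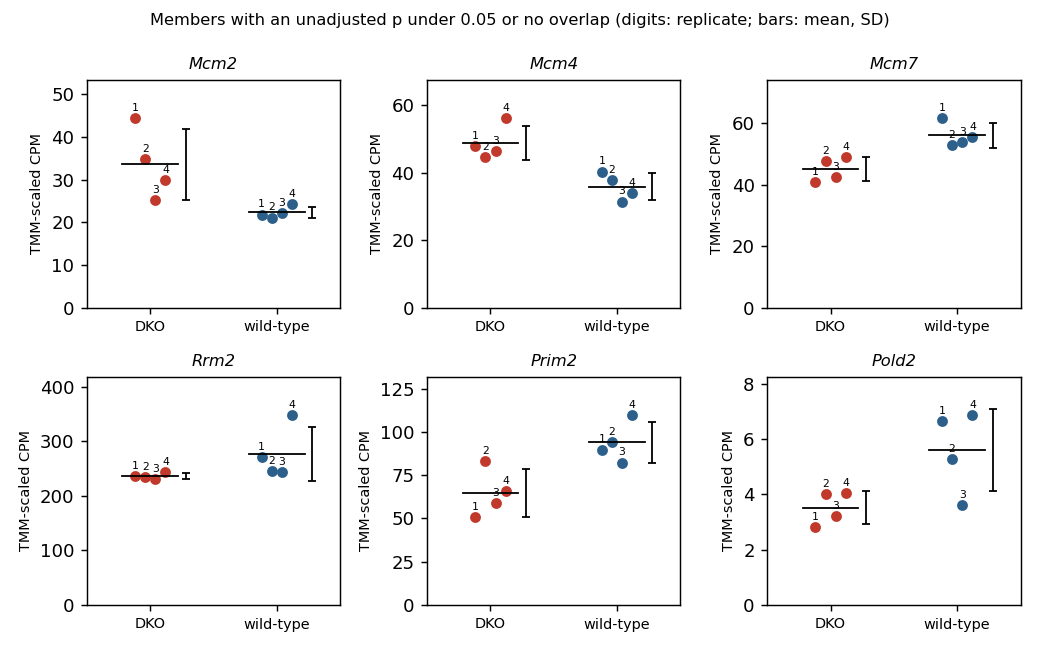
TMM-scaled CPM of the 6 genes with an unadjusted p under 0.05 or with no overlap between genotypes, DKO left of wild-type; digits are replicate numbers, horizontal bars the mean of 4 pools and vertical bars the SD. Mcm2 and Mcm4 are higher in every DKO pool and Mcm7 and Rrm2 lower in every DKO pool, while Prim2 and Pold2 each overlap in 1 or more pools.

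Of the firing kinase, Dbf4 was at 1176, 1055, 1013 and 996 CPM in DKO and 898, 939, 1008 and 779 CPM in wild-type (replicates 1 to 4). The groups overlapped through wild-type replicate 3, and the difference was 0.23 ± 0.14 (log2, SE, adjusted p = 0.561 by edgeR). Its partner Cdc7 had a difference of −0.30 ± 0.25 (log2, SE, adjusted p = 0.650 by edgeR).

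CDC45 and the GINS genes had 1 member above 0 and 4 below, with a median of −0.24 over 5. Gins3, a GINS subunit and the member with the smallest p, was at 26.2, 54.8, 43.6 and 56.7 CPM in DKO and 80.4, 72.1, 37.5 and 73.1 CPM in wild-type. Wild-type replicate 3 lay among the DKO pools, and the difference was −0.54 ± 0.26 (log2, SE, adjusted p = 0.489 by edgeR), and −0.35 without DKO replicate 1. Cdc45, the subunit that links MCM and GINS, was at 252, 377, 320 and 437 CPM in DKO and 442, 443, 345 and 577 CPM in wild-type. Again wild-type replicate 3 alone reached into the DKO range, with a difference of −0.38 ± 0.19 (log2, SE, adjusted p = 0.494 by edgeR), and −0.25 without wild-type replicate 4. Gins4, Gins1 and Gins2 had log2 fold changes of −0.24, −0.09 and 0.01.

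Of the 3 RPA genes, Rpa2 was at 127, 241, 214 and 257 CPM in DKO and 289, 253, 245 and 309 CPM in wild-type. DKO replicate 1 was far below the other pools and the groups overlapped, and the difference was −0.39 ± 0.20 (log2, SE, adjusted p = 0.495 by edgeR). Without that pool it was −0.21. Rpa1 and Rpa3 had log2 fold changes of 0.04 and −0.20.

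Of the clamp and its loader, Pcna, the ring that tethers the polymerases, was at 147, 153, 147 and 170 CPM in DKO and 164, 167, 166 and 160 CPM in wild-type. These groups overlapped, with a difference of −0.09 ± 0.13 (log2, SE, adjusted p = 0.808 by edgeR), and −0.14 without DKO replicate 4. Pcna counts may be shared with Pcna-ps2, a copy that covers 51.5% of its longest coding transcript and had 7 to 16 counts per library in DKO and 5 to 18 in wild-type. Rfc4, a small loader subunit, was at 29.1, 33.5, 31.2 and 23.7 CPM in DKO and 43.1, 44.1, 30.8 and 34.9 CPM in wild-type, overlapping through wild-type replicate 3, with a difference of −0.38 ± 0.18 (log2, SE, adjusted p = 0.489 by edgeR). Rfc4 overlaps Eif4a2 by 12.7% of its exon bases, Rfc2 overlaps Lat2 by 15.1% and Rfc5 overlaps Wsb2 by 10.7%, and 41.3% of the longest Rfc5 transcript has near-identical copies in 11 genes. The other 4 loader genes had log2 fold changes between −0.32 and 0.02.

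The polymerase and primase genes had 5 members above 0 and 4 below, with a median of 0.04 over 9. Prim2, the large primase subunit, was at 50.7, 83.3, 59.1 and 65.8 CPM in DKO and 89.8, 94.1, 82.3 and 110 CPM in wild-type (replicates 1 to 4). The groups overlapped only between DKO replicate 2 and wild-type replicate 3, and the difference was −0.54 ± 0.17 (log2, SE, unadjusted p = 0.00751, adjusted p = 0.469 by edgeR). Its adjusted p ranged from 0.233 to 0.835 over the 14 alternative settings, and none of the 47 members had one below 0.233 in them.

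Prim1, the catalytic primase subunit, was at 122, 165, 125 and 119 CPM in DKO and 172, 179, 165 and 144 CPM in wild-type. DKO replicate 2 alone reached the wild-type range, and the difference was −0.31 ± 0.15 (log2, SE, adjusted p = 0.489 by edgeR). Pold2 was at 2.82, 4.00, 3.23 and 4.05 CPM in DKO and 6.65, 5.29, 3.62 and 6.88 CPM in wild-type, with wild-type replicate 3 inside the DKO range and a difference of −0.67 ± 0.30 (log2, SE, unadjusted p = 0.0403, adjusted p = 0.480 by edgeR). Pold1 had a difference of 2.02 ± 1.06 (log2) on very few counts, of which DKO replicate 1 held the most (SE, adjusted p = 0.503 by edgeR). Pola1, the catalytic subunit of polymerase alpha, and Pold3 had log2 fold changes of 0.19 and 0.10.

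Of the Okazaki fragment and topology genes, Top2a, which untangles sister DNA, was at 128, 204, 201 and 208 CPM in DKO and 215, 241, 196 and 291 CPM in wild-type. DKO replicate 1 lay far below the rest and the groups overlapped, and the difference was −0.35 ± 0.18 (log2, SE, adjusted p = 0.502 by edgeR). It was −0.21 with that pool left out. Lig1, the ligase that seals Okazaki fragments, was at only 4.49 ± 1.14 CPM in DKO and 4.75 ± 1.08 CPM in wild-type (SD, n = 4 each). Fen1, the nuclease that trims flaps before ligation, had 5 to 10 counts per library in DKO and 1 to 14 in wild-type and was not tested. Its level is uncertain: 84.2% of its exon bases overlap exons of Tmem258 and Gm10143 on the other strand, and the strand setting of the counting is not known here. Tmem258 itself had 568 to 855 counts per library in DKO and 600 to 814 in wild-type; whether reads of Fen1 were left uncounted was not tested.

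All 3 nucleotide supply genes among the members were below 0, with a median of −0.41. A separate list of 12 other nucleotide supply genes had 7 above 0 and 5 below, with a median of 0.04. Rrm2 was at 236, 234, 231 and 243 CPM in DKO and 271, 245, 243 and 348 CPM in wild-type (replicates 1 to 4). The DKO pools lay close together and just below the lowest wild-type pool, and the difference was −0.23 ± 0.15 (log2, SE, unadjusted p = 0.141, adjusted p = 0.568 by edgeR). Without wild-type replicate 4, the highest pool, it was −0.11. Copies in Gm48445 and Gm48455 cover 27.9% of the longest Rrm2 transcript. Tk1, which salvages thymidine, was at 11.7, 20.2, 16.7 and 18.8 CPM in DKO and 21.7, 22.7, 17.1 and 33.6 CPM in wild-type, with overlap through wild-type replicate 3 and a difference of −0.50 ± 0.24 (log2, SE, adjusted p = 0.489 by edgeR), which was −0.29 without wild-type replicate 4. A copy in Gm6091 covers 11.5% of the longest Tk1 transcript. Rrm1 had a difference of −0.41 ± 0.23 (log2, SE, adjusted p = 0.519 by edgeR).

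**Figure D5:**
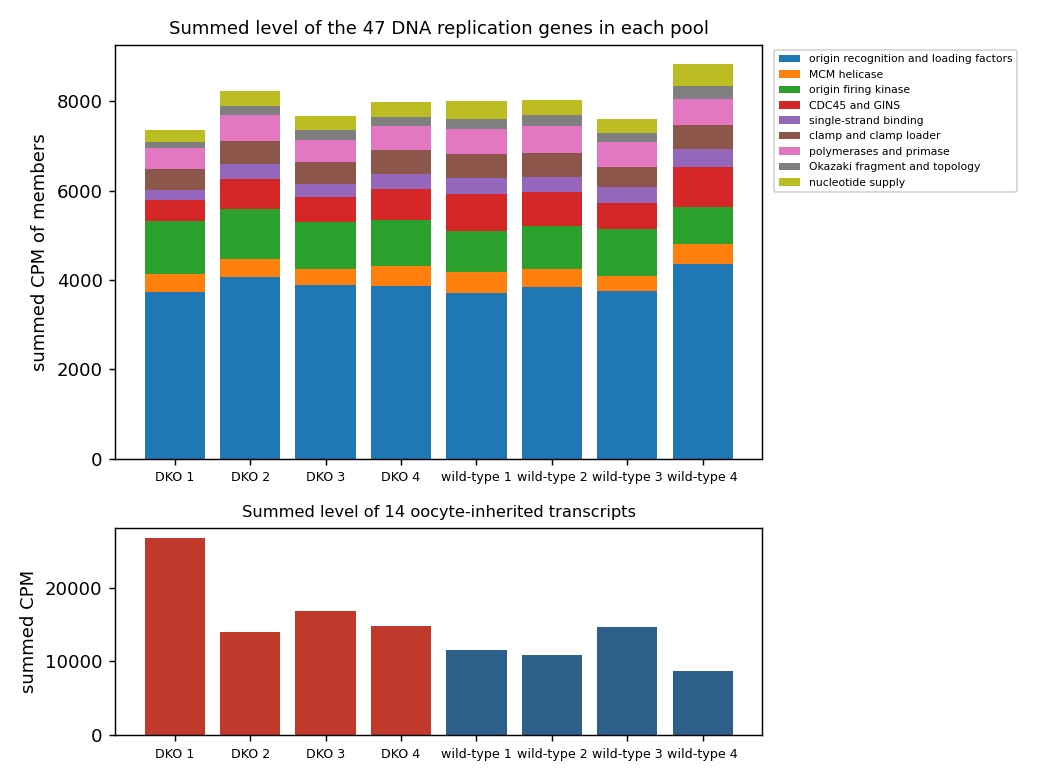
Summed CPM of the 47 genes in each pool, stacked by role (upper panel), and summed CPM of 14 oocyte-inherited transcripts (lower panel), DKO pools left of wild-type pools. The member sums run from 7365 to 8217 CPM in DKO and 7604 to 8824 CPM in wild-type, while DKO replicate 1 stands above the other pools in oocyte-inherited RNA.

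The number of genes without overlap depended on 1 pool, and the number lower at an unadjusted p under 0.05 on several. Without wild-type replicate 3, which lay low in several of these genes, the pools of 15 of 47 genes did not overlap, 12 of them lower in DKO, against 4 of 46 with all pools; 31.9% of the members then compare with 13.2% of all genes tested, and the 25.5% of members lower in DKO with 6.69% of all genes. The 12 were Orc2, Mcm7, Cdc45, Gins3, Gins4, Rfc4, Prim2, Pold2, Top2a, Rrm1, Rrm2 and Tk1, and edgeR still called 0. Members without overlap numbered 4 to 6 with any other library left out. Wild-type replicate 3 had the lowest member sum of the wild-type pools, 7604 CPM, so leaving it out favours separation as lower in DKO. These shares therefore do not test a difference between the genotypes. The number lower at an unadjusted p under 0.05, 2 with all pools, was 8 without wild-type replicate 3 or DKO replicate 2, where 5.98% and 6.20% of all genes were lower by that measure. It was 5 without DKO replicate 4 (4.55% of all genes), and 1 without DKO replicate 1, DKO replicate 3 or wild-type replicate 2 (3.25%, 4.12% and 2.91% of all genes). Wild-type replicate 3 had the highest sum of oocyte-inherited transcripts among the wild-type pools, at 14649 CPM against 8737 to 11575 CPM, and the lowest sum of replication genes; the part of oocyte-inherited RNA in these differences was not tested.

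Genes with an E2F word were set beside those without. Of the 15 with a word, 9 were below 0, with a median log2 fold change of −0.09, and of the 23 tested without one, 15 were below 0, with a median of −0.20. Their median level was 8.57 CPM per kb in DKO and 9.26 CPM per kb in wild-type with a word, and 33.2 CPM per kb in DKO and 32.8 CPM per kb in wild-type without.

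A further 73 genes of DNA replication, from fork protection to S phase control, gave 72 tested, 37 above and 35 below 0, with a median log2 fold change of 0.02 and 0 called by edgeR. Of them 3 were higher at an unadjusted p under 0.05 (4.17%, against 5.79% of all genes tested) and 0 lower. The pools of 5 of the 72 did not overlap (6.94%, against 5.34% of all genes tested), namely the 3 just counted, Rb1 and Rnaseh1. Dut, which removes dUTP before it can enter DNA, was at 983, 723, 747 and 654 CPM in DKO and 454, 503, 600 and 389 CPM in wild-type (replicates 1 to 4), every DKO pool above every wild-type pool, with a difference of 0.67 ± 0.17 (log2, SE, adjusted p = 0.453 by edgeR). E2f1, an activator of S phase genes, was at 49.0, 38.7, 41.0 and 47.9 CPM in DKO and 30.5, 31.3, 34.0 and 30.2 CPM in wild-type, with a difference of 0.49 ± 0.16 (log2, SE, adjusted p = 0.469 by edgeR). Mcm9, a relative of the ring subunits that works in DNA repair, had a difference of 0.44 ± 0.20 (log2, SE, adjusted p = 0.480 by edgeR). Mcm9 lies on chromosome 10, as does the targeted Gadd45b, and any part of that in its difference was not tested. Rb1, a brake on E2F factors, was at 181 to 276 CPM in DKO and 138 to 178 CPM in wild-type, and Rnaseh1, which removes RNA paired with DNA, at 28.2 to 31.3 CPM in DKO and 31.8 to 43.2 CPM in wild-type; these 2 were named after their values were seen. Dut and E2f1 were highest in DKO replicate 1, E2f1 only just, at 49.0 CPM against 47.9 CPM in DKO replicate 4. Mcm9 was highest in DKO replicate 4, at 34.9 CPM. Any link of these genes to the oocyte-inherited RNA was not tested.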

How the data were processed

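PolyA RNA was made into cDNA (Smart Seq v4) and sequenced single-end on 1 flow cell, per the labels' protocols. Each library has 1 deposited table of raw read counts by gene identifier. The submitters' processing notes name STAR 2.5.2b, featureCounts 1.5.1 and DESeq2 1.18.1, with builds NCBIM37 and mm9. Settings for strand and multi-mapping reads are not given in the sources used here. Of 37310 identifiers 32620 matched a symbol; lengths, overlaps and copies (at least 85 bases at 95% identity) came from GENCODE M21 on GRCm38, another build than that of the counts.

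Counts of all genes were fitted with edgeR 4.0.16 (R 4.3.3): filterByExpr, TMM, robust quasi-likelihood test, no covariates, Benjamini-Hochberg over 14970 genes, threshold 0.05. Alternatives were DESeq2 1.42.0, limma-voom 3.58.1 with quality weights, RLE and upper quartile scaling, no filter, a replicate block and each library left out. The SE of a log2 fold change was derived from the edgeR test, as its absolute value divided by the square root of the F statistic. The 95% intervals used this SE and t quantiles with the test's degrees of freedom. The fit was tested on simulated data. Libraries of 1 genotype all differed by more than counting error (chi-square over degrees of freedom at least 22.2). Pools are separate litters.

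Values in every library are given for members with no overlap or an unadjusted p under 0.05 and, in each of 9 roles, for those with the smallest p and the highest level per length in wild-type; of other replication genes, those with both no overlap and such a p. The members, lists and rules were chosen with earlier results of these data known.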

Additional observations from a re-analysis of the deposited data

Results flagged for a closer look

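Each of 92 sets of 4 pools (46 tested genes in 2 genotypes) was searched for a pool whose gap to its nearest neighbour took up more of the set's range than Dixon's 95% critical value, on log2(CPM + 1). This marked 6 sets (6.52%), and chance marks about 1 in 20. Of the 6 pools, 2 were DKO replicate 1 and 2 were wild-type replicate 3. In DKO replicate 1, Top2a was at 128 CPM, with the other DKO pools at 201 to 208 CPM, and Rrm1 at 39.9 CPM, with the others at 72.8 to 76.4 CPM. In DKO replicate 2, Prim1 was at 165 CPM, with the others at 119 to 125 CPM. In wild-type replicate 3, Orc2 was at 191 CPM, with the other wild-type pools at 221 to 222 CPM, and Gins3 at 37.5 CPM, with the others at 72.1 to 80.4 CPM. In wild-type replicate 1, Gins2 was at 43.3 CPM, with the others at 33.8 to 34.0 CPM.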

How the results depend on the processing

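No alternative called any of the 47 members, and their median log2 fold change stayed negative in all 14, from −0.15 to −0.09. The number of members lower at an unadjusted p under 0.05, 2 in the edgeR fit, was 7 with DESeq2 (3.73% of all genes), 6 with no filter on low counts (4.34%), 4 with limma-voom quality weights (5.16%), 3 with RLE scaling (4.68%) and 1 to 8 with a library left out (2.91 to 6.20%), against 4.44% of all genes in the edgeR fit. Members without overlap numbered 15 without wild-type replicate 3 (13.2% of all genes) and 4 to 6 without any other library (6.70 to 11.97%). The cause was not tested. Over all genes DESeq2 called 49 and the unfiltered fit 7, against 4. Of the 46 tested genes 35 kept their sign in all 14 alternatives; the exceptions were Cdt1, Gmnn, Mcm3, Gins1, Gins2, Rpa1, Rfc1, Rfc2, Pola2, Pole2 and Lig1. Gmnn, at −0.03 in the edgeR fit, was at 0.026 with limma-voom and −0.113 to 0.089 when 1 library was left out, above 0 if that was DKO 1 or wild-type 4. The replicate numbers do not pair the pools (correlation of same-numbered deviations 0.00235 to 0.078; 2 of 4 DKO pools matched best with their own number); with a replicate block 4 members were lower at an unadjusted p under 0.05 (4.66% of all genes), 0 members and 4 genes in all were called, and the median was −0.09. With 4 pools per genotype, the widest intervals were those of Pold1, at few counts, and Mcm5.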
